A study of Rattus norvegicus with 9 samples.

Results

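The comparison concerned cultured fibroblasts (Fb) from 2 compartments of the same sciatic nerves: epineurium-derived cells (Fb-Epn) and parenchyma-derived cells (Fb-Par). Its members were the 3 Fb-Epn and 3 Fb-Par samples, 6 of the 9 samples of the series, and every gene of the count table was included. The donors were wild-type (WT) male Lewis rats aged 10 weeks, and the nerves of 2 rats gave both nerve types. The remaining 3 samples (Fb-Skn) came from abdominal skin of 1 other male rat of that age and serve only as background. Epineurium and parenchyma were parted by hand, so each culture may hold cells of the other layer. All tissues were minced and digested with collagenase and trypsin, and the cells were grown in serum-containing medium and passaged once after 3 to 4 days. The labels give no injury or treatment for any group. No label says that the 3 samples of a type came from separate cultures, and with 2 nerve donors they cannot stand for 3 animals, so each p-value measures only the spread between these samples, which may be technical.

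A peripheral nerve is wrapped in layers of connective tissue. The epineurium is the outer sheath, rich in collagen bundles, blood vessels and lymphatics, and resident macrophages are found in it. The parenchyma inside it holds the nerve fascicles, in which perineurial cells form a barrier around each fascicle and endoneurial fibroblasts lie between Schwann cells and axons. Fibroblasts of both compartments build the extracellular matrix (ECM) and release cytokines, growth factors and guidance cues.

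The 6 samples held between 10287389 and 12310506 counts. Samples of a type resembled each other closely: the biological coefficient of variation was 7.696% in Fb-Epn and 8.92% in Fb-Par. Levels are given as TPM, a measure of transcript abundance scaled by gene length and depth, and differences as the log2 fold change, Fb-Epn minus Fb-Par, with its standard error (SE). A gene was called past the adjusted p when its Benjamini-Hochberg adjusted p in the edgeR quasi-likelihood test was under 0.01, and a DE gene when its log2 fold change was also above 2 or below -2. Because whole cultures were measured, fewer cells of a kind and less RNA per cell cannot be told apart.

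Of 13273 tested genes, 5145 (38.8%) passed the adjusted p. Fb-Epn had the higher level in 2676 of them (20.2% of the tested genes) and Fb-Par in 2469 (18.6%). DE genes numbered 860 (6.48%), with 543 (4.09%) higher in Fb-Epn and 317 (2.39%) higher in Fb-Par. The TPM values of the 3 Fb-Epn and 3 Fb-Par samples did not overlap in 7602 genes (57.3%). Most changes were small, since 3227 of the genes past the adjusted p differed by less than 2-fold and 145 by more than 16-fold. The counts of each gene list are read against these shares. The lists were chosen with earlier results of these data known, and their counts are given without a test. The median log2 fold change of all tested genes was -0.000184.

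**Figure D1:**
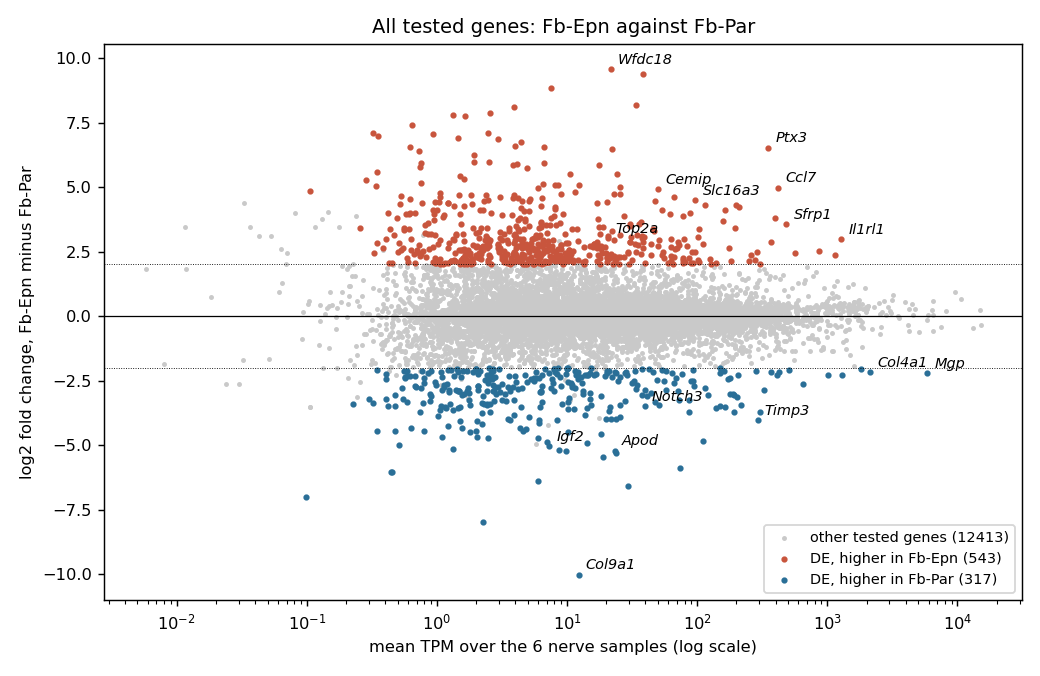
Each point is 1 tested gene, placed by its mean TPM over the 6 nerve samples (log scale) and its fitted log2 fold change, Fb-Epn minus Fb-Par; genes at 0 TPM in all 6 are not drawn. The 543 DE genes above the upper dotted line and the 317 below the lower one spread over all levels, and *Mgp* and *Col4a1* stand out among abundant genes on the Fb-Par side.

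The identity of the cultures was checked first. All 11 fibroblast identity genes were expressed in both types and passed the adjusted p, with 6 higher in Fb-Epn (1 DE) and 5 in Fb-Par. When single samples were left out, 4 or 5 were higher in Fb-Epn. *Col1a1*, the main chain of type 1 collagen, reached 16016, 15646 and 15944 TPM in the Fb-Epn samples and 13633, 14074 and 13464 TPM in the Fb-Par samples, a log2 difference of 0.22 ± 0.017. *Thy1*, a surface glycoprotein of fibroblasts, stood at 717, 719.6 and 694 TPM in Fb-Epn against 1039.9, 975 and 1004 TPM in Fb-Par. *Pdgfrb*, a receptor for platelet-derived growth factor shared with mural cells, measured 131, 125 and 127 TPM in Fb-Epn and 374, 374 and 372 TPM in Fb-Par (log2 fold change -1.54 ± 0.027, edgeR adjusted p = 3.51e-15). *Pdgfra* was at 149, 153 and 151 TPM against 138, 132 and 140.2 TPM, and its call was lost whichever sample was left out (edgeR adjusted p = 0.0126 to 0.0434).

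Markers of the nerve compartments did not all follow the labels of the cultures. Of the endoneurial fibroblast markers, 3 were DE and higher in Fb-Par: *Apod*, a lipid-binding apolipoprotein, at 0.829, 1.47 and 1.23 TPM in Fb-Epn and 41.6, 44.1 and 50.03 TPM in Fb-Par (log2 fold change -5.21 ± 0.34, edgeR adjusted p = 7.42e-10), and the transcription factors *Etv1* (-2.91 ± 0.16) and *Osr2* (-2.34 ± 0.12). *Sox9*, another gene of that list, went the other way, with 94.5, 93.2 and 92.5 TPM in Fb-Epn and 18.2, 15.4 and 16.2 TPM in Fb-Par (2.50 ± 0.067). *Wif1* overlapped between the types (edgeR adjusted p = 0.656). In the epineurial and adventitial list, 5 of 9 tested genes were higher in Fb-Par and 2 in Fb-Epn. *Dpt*, which encodes the decorin-binding matrix protein dermatopontin, reached 33.6, 33.9 and 38.3 TPM in Fb-Par and 0.849, 1.42 and 2.15 TPM in Fb-Epn (-4.56 ± 0.22), whereas *Sfrp2*, a secreted Wnt antagonist, was higher in Fb-Epn (15.2, 17.4 and 14.2 TPM against 0.467, 0.18004 and 0.684 TPM). The summed TPM of the list was 379 to 383 in Fb-Epn and 765 to 817 in Fb-Par, against the label of the epineurial cultures. Of the 5 genes higher in Fb-Par, *Comp* lost its call when single samples other than Fb-Epn sample 1 were left out (edgeR adjusted p = 0.00109 to 0.0278). Perineurial markers were mixed as well: *Msln* (42.5, 39.5 and 49.5 TPM against 0.418, 0.483 and 0.551 TPM) and the glucose transporter *Slc2a1* were DE and higher in Fb-Epn, *Tenm2* was DE and higher in Fb-Par, and *Cldn1*, *Krt19*, *Lypd2* and *Moxd1* averaged under 0.5 TPM in both types. The summed TPM of the perineurial list was 196 to 212 in Fb-Epn and 46.9 to 52.1 in Fb-Par. *Msln* gave 39.5 to 49.5 TPM of the Fb-Epn sum. *Slc2a1* also belongs to the hypoxia and glycolysis list below, so the sum is not a measure of perineurial cells alone.

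Markers of other cell types also moved between the cultures. All 11 tested macrophage and leukocyte genes were higher in Fb-Epn, 5 of them DE. With single samples left out, 9 to 11 passed. *C1qb* lost its call without Fb-Epn sample 1 or 2 or Fb-Par sample 1 or 3 (edgeR adjusted p = 0.00805 to 0.0564). *Aif1* lost its call without Fb-Epn sample 3 or Fb-Par sample 1 (edgeR adjusted p = 0.00138 to 0.0151). The summed TPM of the list was 1299 to 1374 in Fb-Epn, 279 to 291 in Fb-Par and 85.2 to 91.5 in Fb-Skn. *Lyz2*, which encodes lysozyme, made up most of this, at 962, 930.4 and 979 TPM in Fb-Epn and 183, 171 and 179 TPM in Fb-Par (2.44 ± 0.037). *Ptprc*, the pan-leukocyte antigen, measured 5.83, 5.44 and 6.12 TPM and 1.23, 1.54 and 1.55 TPM, and *Cd163*, a scavenger receptor of tissue macrophages, 8.503, 8.97 and 8.96 TPM and 0.214, 0 and 0 TPM. The T cell gene *Cd3e* and the mast cell gene *Cpa3* had 0 TPM in all 6 samples.

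Schwann cell markers leaned the other way, with 9 of 12 tested genes higher in Fb-Par and 1, *Egr2*, in Fb-Epn. *Sox10*, which specifies the Schwann lineage, was at 13.9, 15.005 and 14.7 TPM in Fb-Epn, 30.3, 30.1 and 32.3 TPM in Fb-Par and 0 TPM in the skin samples (-1.08 ± 0.084, edgeR adjusted p = 3.23e-07). Summed, the list gave 622 to 645 TPM in Fb-Epn and 842 to 859 TPM in Fb-Par. Of this, *Pmp22* averaged 380 TPM in Fb-Epn and 543 TPM in Fb-Par. It also averaged 270 TPM in skin, without *Sox10* there, so the sum is not a measure of Schwann cells alone. *S100b* did not pass (means of 129.6 and 119 TPM, edgeR adjusted p = 0.114). *Prx* lost its call when single samples other than Fb-Par sample 3 were left out (edgeR adjusted p = 0.00879 to 0.0444). Of the pericyte and smooth muscle genes, 7 of 10 were higher in Fb-Par and 1, *Des*, in Fb-Epn, although *Des* stayed under 2 TPM and lost its call whichever sample was left out (edgeR adjusted p = 0.0134 to 0.0576). Their summed TPM was 3578 to 3806 in Fb-Epn, 5884 to 6059.9 in Fb-Par and 10916 to 11377 in skin. *Notch3* averaged only 1.55 TPM in skin, where the sum was highest, so the sum is not a measure of mural cells alone. The DE members were *Notch3*, *Cspg4* (which encodes the NG2 proteoglycan, -3.10 ± 0.077) and *Myh11* (smooth muscle myosin, -2.72 ± 0.044). More restricted pericyte genes were not uniform. *Rgs5* was at 3.65, 6.46 and 3.37 TPM in Fb-Epn, 12.04, 15.98 and 16.7 TPM in Fb-Par and 0 TPM in skin (-1.70 ± 0.31, edgeR adjusted p = 0.000509). *Kcnj8* and *Abcc9* averaged 1.10 to 1.32 TPM in both types and did not pass. Endothelial genes were low, summing to 19.2 to 20.6 TPM in Fb-Epn and 11.3 to 12.98 TPM in Fb-Par, and *Cdh5*, *Tie1* and *Lyve1* were DE and higher in Fb-Epn. *Acta1*, an actin of skeletal muscle, was higher in Fb-Par (9.704, 7.97 and 8.09 TPM against 78.7, 91.5 and 87.6 TPM), and the myogenic regulators *Myod1*, *Myog*, *Myf5* and *Pax7* had 0 TPM in every nerve sample. Adipocyte genes summed to 141 to 162 TPM and 154 to 162 TPM, neuronal genes to at most 7.72 TPM, and *Adipoq* and *Lep* averaged under 0.5 TPM. The share of these cells in any difference below was not tested.

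**Figure D2:**
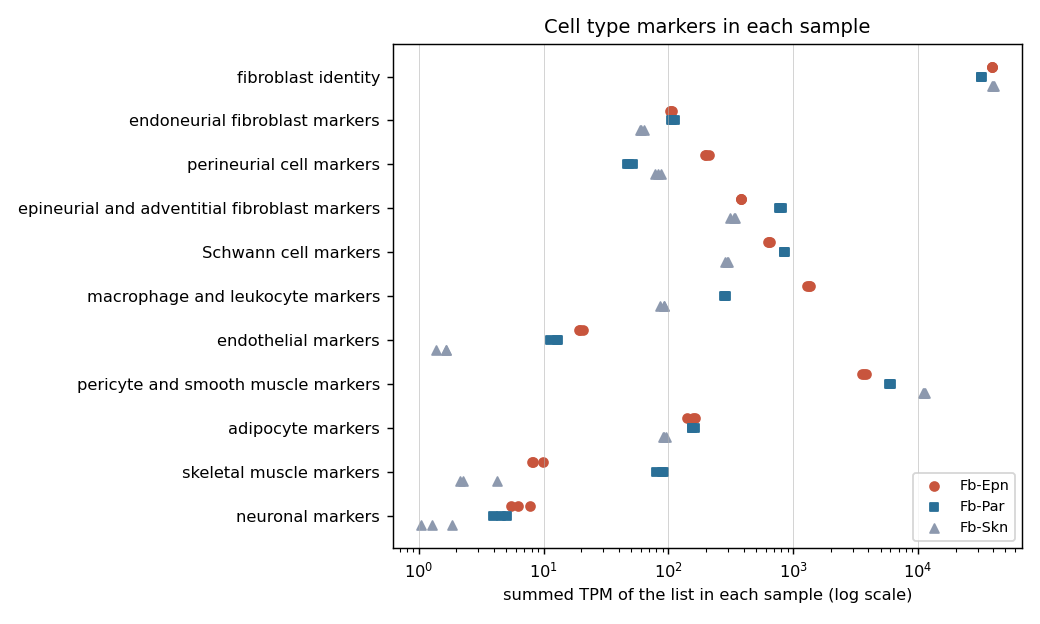
Summed TPM of each cell type marker list in every sample (log scale), with 3 points each for Fb-Epn, Fb-Par and Fb-Skn. Macrophage markers lie at 1299 to 1374 TPM in Fb-Epn and 279 to 291 TPM in Fb-Par, and the epineurial list lies higher in Fb-Par.

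Among genes with a mean of at least 10 TPM in the higher type, the largest fitted log2 fold changes towards Fb-Epn were in *Wfdc18*, *Ccl20*, *Crabp1*, *Ccl12*, *Sv2c*, *Ptx3*, *Msln*, *Plac8*, *Tnmd* and LOC100911130. Several of these had no more than 3 counts in any Fb-Par sample, and for them a fold is a lower bound taken against 3 counts per sample. The fitted value that placed them here is no bound, and *Wfdc18*, *Crabp1* and *Plac8* would rank below genes outside these 10, such as *Hpgd*, by their bounds. *Wfdc18* (a small secreted protein with a whey acidic protein domain) was at 36.6, 48.04 and 45.2 TPM in Fb-Epn and 0 in all Fb-Par samples, a bound of 32.3-fold or more. *Crabp1*, which binds retinoic acid in the cytoplasm, was at 15.6, 15.6 and 14.1 TPM and 0, at least 19.7-fold higher. *Sv2c*, a synaptic vesicle glycoprotein, was at least 66.3-fold and *Plac8* at least 16.2-fold higher in Fb-Epn. *Ptx3*, a soluble pattern recognition protein of the pentraxin family, was the most abundant of the 10, at 691, 695 and 687 TPM against 6.26, 8.22 and 8.33 TPM (log2 fold change 6.52 ± 0.090, edgeR adjusted p = 5.17e-17). LOC100911130 varied from 24.2 to 64.8 TPM within Fb-Epn, and whether it shares reads with copies elsewhere was not tested.

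Towards Fb-Par the largest fitted log2 fold changes were in *Col9a1*, RGD1305645, *Inmt*, *Smpd3*, LOC100910418, *Gucy1a1*, *Myoc*, *Apod*, *Nppc* and *Igf2*. *Smpd3*, a neutral sphingomyelinase, stood at 144, 145 and 145 TPM in Fb-Par and 2.295, 2.801 and 2.11 TPM in Fb-Epn (-5.89 ± 0.093, edgeR adjusted p = 1.15e-16). *Gucy1a1*, a subunit of the nitric oxide receptor guanylate cyclase, was at 45.8, 47.02 and 46.5 TPM against 1.22, 1.15 and 1.07 TPM (-5.32 ± 0.12). *Myoc*, a secreted olfactomedin-domain protein, was at 20.05, 18.1 and 18.99 TPM against 0.681, 0.258 and 0.577 TPM (-5.22 ± 0.32). *Nppc*, the precursor of C-type natriuretic peptide, was at least 30.1-fold higher in Fb-Par, and *Inmt*, an amine methyltransferase, at least 22.6-fold, a bound under the fold of *Dpt*, which is not among the 10. None of these 5 overlapped between the types, but they were picked by their fold, and 57.3% of all tested genes did not overlap either. The value of LOC100910418 rested on 1 library, with 3.15, 105 and 3.24 TPM in the Fb-Par samples and an edgeR adjusted p of 0.000606 to 0.044 when single samples were left out.

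Presence was also read directly from the counts, as at least 20 counts in each sample of a type and at most 3 in each sample of the other. By this rule 32 genes were present in Fb-Epn and 13 in Fb-Par. The Fb-Epn set included *Ccl20*, *Ccl12*, *Cxcl13*, *Cfi*, *Lcn2*, *Mmp7*, *Ereg* and *Clec4d*, and the Fb-Par set included *Col9a1*, *Nppc*, the glial cell line-derived neurotrophic factor receptor *Ret*, the serotonin receptor *Htr1f*, *Cdh20* and *Aox3*. No gene of these sets exceeded a mean of 77.0 TPM in its higher type. These examples were picked after their values were seen.

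Cell cycle genes moved together. Mitosis separates the copied chromosomes, and all 24 mitosis genes were higher in Fb-Epn and 20 of them were DE, with a median log2 fold change of 2.38. Their summed TPM was 569.6 to 586 in Fb-Epn, 113 to 118 in Fb-Par and 269 to 282 in Fb-Skn. *Top2a*, the topoisomerase that untangles sister chromatids, was at 35.2, 37.3 and 37.5 TPM in Fb-Epn and 3.82, 4.49 and 5.38 TPM in Fb-Par (3.02 ± 0.098, edgeR adjusted p = 1.94e-12). *Ccna2*, an S and M phase cyclin, was at 28.1, 31.4 and 29.6 TPM against 4.01, 4.64 and 4.24 TPM (2.80 ± 0.11), *Plk1*, a mitotic kinase, at 28.8, 27.2 and 27.98 TPM against 4.24, 3.39 and 4.48 TPM (2.80 ± 0.12), and *Cenpf*, a kinetochore protein, at 10.5, 11.2 and 9.48 TPM against 1.56, 1.42 and 1.55 TPM (2.79 ± 0.10). The types did not overlap in any of these 4 genes, but they were named for their large folds, and 57.3% of all tested genes did not overlap.

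DNA replication genes followed at a smaller size: 24 of 25 were higher in Fb-Epn, 6 were DE and the median was 1.36. *Rrm2*, which makes deoxynucleotides, was at 62.8, 73.4 and 65.3 TPM in Fb-Epn and 9.33, 8.27 and 5.64 TPM in Fb-Par (3.12 ± 0.21). *Mcm5*, a subunit of the replicative helicase, was at 22.1, 26.5 and 25.3 TPM against 3.34, 5.73 and 5.26 TPM (2.38 ± 0.16), and *Uhrf1* and *Cdc45* differed by 2.56 ± 0.14 and 2.57 ± 0.25. Among D-type cyclins and CDK inhibitors the direction was split, with 5 of 14 higher in Fb-Epn and 8 in Fb-Par. The inhibitors of the cyclin D kinases *Cdkn2b* (5.08, 3.37 and 4.53 TPM against 49.4, 45.5 and 45.96 TPM, -3.44 ± 0.10) and *Cdkn2a* (2.39, 1.73 and 4.302 TPM against 18.5, 16.1 and 22.1 TPM, -2.75 ± 0.31) were DE and higher in Fb-Par. The p53 target *Cdkn1a* was higher there as well, at 122, 123 and 118 TPM against 296, 302 and 305 TPM (-1.30 ± 0.039), and so was *Ccnd2* (-1.42 ± 0.057). *Cdkn1c*, another inhibitor, had the opposite direction, at 29.7, 30.3 and 34.7 TPM in Fb-Epn and 3.57, 5.47 and 6.57 TPM in Fb-Par (2.62 ± 0.17).

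The start regions of these genes are shown because members of the groups moved together. The windows come from RefSeq on GRCr8, run from 250 bases before to 50 bases after the annotated start, and are printed 5′ to 3′ on the strand of the gene. In all, 13 short motifs were searched on both strands of 33469 windows, and those reported were picked after their counts were seen. The letters TTTGAA, the core of the cell cycle homology region element, occurred in 15 of the 21 mitosis genes with a window and in 18.3% of all windows. Of 20 DNA replication genes 1 held it. The letters TTTCGCGC, a form of the E2F site, occurred in 6 of these 20 replication genes (all but 1 of them *Mcm* genes), in 1 mitosis gene and in 0.326% of all windows. A match is a description of the letters and not a bound site. *Top2a* (chr10:84473044-84473343, minus strand) and *Plk1* (chr1:186147408-186147707, plus strand) are printed with TTTGAA or its reverse complement in capitals, and *Mcm5* (chr19:13488563-13488862, plus strand) with TTTCGCGC in capitals.
Top2a: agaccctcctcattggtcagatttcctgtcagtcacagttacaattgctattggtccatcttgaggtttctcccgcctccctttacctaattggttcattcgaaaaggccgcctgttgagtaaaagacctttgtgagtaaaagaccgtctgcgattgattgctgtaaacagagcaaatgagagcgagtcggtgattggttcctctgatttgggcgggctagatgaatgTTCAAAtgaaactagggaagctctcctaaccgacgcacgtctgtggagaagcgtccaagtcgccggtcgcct
Plk1: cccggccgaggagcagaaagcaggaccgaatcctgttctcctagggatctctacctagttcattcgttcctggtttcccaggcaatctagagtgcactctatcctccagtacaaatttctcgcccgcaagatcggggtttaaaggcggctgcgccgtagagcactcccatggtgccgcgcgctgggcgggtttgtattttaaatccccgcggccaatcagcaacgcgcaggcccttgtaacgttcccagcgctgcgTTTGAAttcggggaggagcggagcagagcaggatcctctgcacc
Mcm5: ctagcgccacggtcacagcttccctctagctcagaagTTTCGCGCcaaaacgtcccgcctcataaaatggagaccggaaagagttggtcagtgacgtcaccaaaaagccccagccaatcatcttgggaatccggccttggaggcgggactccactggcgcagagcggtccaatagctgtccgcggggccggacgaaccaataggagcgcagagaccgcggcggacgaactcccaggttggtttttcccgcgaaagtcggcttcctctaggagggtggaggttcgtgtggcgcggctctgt

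Genes of the hypoxia response and glycolysis were another group with 1 direction: 24 of 30 were higher in Fb-Epn, 8 of them DE, none was higher in Fb-Par, and the median was 1.32. Summed, they gave 14901 to 15319 TPM in Fb-Epn, 6689 to 6924 TPM in Fb-Par and 9102 to 9161 TPM in Fb-Skn. *Slc16a3*, the transporter that exports lactate, was at 189, 188 and 179 TPM in Fb-Epn and 8.59, 6.98 and 9.06 TPM in Fb-Par (4.50 ± 0.079, edgeR adjusted p = 8.64e-16). *Adm*, the vasodilator peptide adrenomedullin, was at 653, 637 and 656 TPM against 94.3, 85.4 and 91.001 TPM (2.85 ± 0.042), and *Egln3*, a prolyl hydroxylase that acts on hypoxia-inducible factors, at 13.1, 13.6 and 14.8 TPM against 1.23, 1.72 and 2.49 TPM (2.94 ± 0.20). *Gapdh*, often taken as a constant reference, was at 2652, 2678 and 2679.9 TPM against 1312, 1278 and 1172 TPM (1.10 ± 0.037). *Vegfa*, which drives the growth of blood vessels, was at 312, 309 and 322 TPM against 103, 100.3 and 101 TPM (1.64 ± 0.030). None of these overlapped between the types, but they were named for the size of their difference, and 57.3% of all tested genes did not overlap. The oxygen level of the cultures is not given in the sources used here.

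The core of the hypoxia response element, ACGTG, was found in 15 of the 27 windows of this list and in 19.3% of all windows. It was also found in 7 of 21 mitosis windows, 7 of 20 DNA replication windows and 0 of 12 chemokine windows. A share above that of all windows was therefore not particular to the hypoxia list. The windows of *Slc16a3*, *Adm* and *Egln3* do not hold these letters. Of the DE members that do, *Bnip3*, a mitophagy receptor (454, 448 and 456 TPM against 104, 103 and 96.1 TPM, 2.18 ± 0.044), and *Ddit4*, an inhibitor of mTOR signalling (205, 207 and 199 TPM against 49.8, 52.8 and 50.9 TPM, 2.00 ± 0.055), were picked after their values were seen. *Bnip3* (chr1:203154913-203155212, minus strand) and *Ddit4* (chr20:28436988-28437287, minus strand) are printed with ACGTG or its reverse complement in capitals; in *Bnip3* the copies on both strands overlap and form CACGTG.
Bnip3: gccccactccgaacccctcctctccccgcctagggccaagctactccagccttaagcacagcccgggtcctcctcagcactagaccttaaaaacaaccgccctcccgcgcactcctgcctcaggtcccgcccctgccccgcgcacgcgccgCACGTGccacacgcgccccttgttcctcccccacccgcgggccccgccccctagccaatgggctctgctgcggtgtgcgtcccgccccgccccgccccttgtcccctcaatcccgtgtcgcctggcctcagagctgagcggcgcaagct
Ddit4: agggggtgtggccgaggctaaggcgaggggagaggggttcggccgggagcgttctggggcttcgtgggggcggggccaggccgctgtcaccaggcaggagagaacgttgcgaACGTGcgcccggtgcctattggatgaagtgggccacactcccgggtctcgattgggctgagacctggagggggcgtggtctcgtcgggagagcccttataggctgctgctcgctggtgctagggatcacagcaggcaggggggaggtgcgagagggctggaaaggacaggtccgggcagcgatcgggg

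Cholesterol synthesis genes had the same lean with small sizes, since 16 of 22 were higher in Fb-Epn, none was DE and the median was 0.56. Of the immediate early genes, 15 of 23 were higher in Fb-Epn, led by *Egr3* (16.7, 16.9 and 19.1 TPM against 2.83, 3.03 and 3.18 TPM, 2.55 ± 0.14), and *Myc* was at 89.9, 87.1 and 96.5 TPM against 36.9, 32.5 and 34.3 TPM. *Jun* and *Klf2* were among the 6 that were higher in Fb-Par (-0.68 ± 0.049 and -0.82 ± 0.070).

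Chemokine ligands recruit leukocytes to tissue. Of 16 tested ligands, 14 were higher in Fb-Epn (13 DE) and 2 in Fb-Par, with a median of 3.96, or 3.65 with the 4 ligands at or under the floor in Fb-Par set to their bounds. Their summed TPM was 2162 to 2270.0 in Fb-Epn and 156 to 176 in Fb-Par. *Ccl20*, the ligand of CCR6, was at 72.9, 78.6 and 79.5 TPM in Fb-Epn and 0, 0 and 0.255 TPM in Fb-Par, a bound of 103-fold or more. *Ccl12*, a ligand of CCR2, was at 60.3, 73.1 and 69.5 TPM against 0, 0.311 and 0.296 TPM, at least 77.7-fold higher. *Cxcl13* and *Cxcl6* had 0 TPM in Fb-Par, with bounds of 9.94-fold and 9.09-fold. On the Fb-Par side stood *Cx3cl1*, fractalkine (0.318, 0.0563 and 0.503 TPM against 2.27, 2.16 and 1.47 TPM, -2.74 ± 0.51), and *Cxcl16* (-0.69 ± 0.092). The macrophage list was also higher in Fb-Epn, and its part in these differences was not tested.

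Many chemokine genes lie in clusters, and runs of neighbouring DE genes were found there. In the coordinates of the count table (rn6), *Ccl2*, *Ccl7*, *Ccl11* and *Ccl12* follow each other on chromosome 10 between 69412017 and 69478462, and all 4 were DE and higher in Fb-Epn. *Ccl2*, the main attractant of monocytes, was at 716, 714 and 781 TPM against 51.1, 49.5 and 57.1 TPM (3.82 ± 0.060) and *Ccl7* at 812, 794 and 818 TPM against 27.2, 22.6 and 27.6 TPM (4.97 ± 0.080). A second run on chromosome 10, 70783424 to 71010863, joined *Ccl9*, *Ccl6*, *Ccl3*, *Ccl4* and *Wfdc18* with 2 unnamed genes, although *Ccl4* (2.04 ± 0.52) lost its call without Fb-Epn sample 2 or 3 or Fb-Par sample 3 (edgeR adjusted p = 0.0069 to 0.0178). One of the unnamed genes, AC114233.1, lies antisense within *Ccl3*, so their reads cannot be told apart, and it lost its call without sample 1 or 3 of either type (edgeR adjusted p = 0.00089 to 0.0218). A loose form of the NF-kappaB site, GGG and TTCC spaced by 3 bases of any kind, occurred in 6 of the 12 chemokine windows and in 5.37% of all windows. *Ccl20* (chr9:91836909-91837208, plus strand) and *Ccl7* (chr10:67513845-67514144, plus strand) are printed with their match, on the opposite strand, in capitals.
Ccl20: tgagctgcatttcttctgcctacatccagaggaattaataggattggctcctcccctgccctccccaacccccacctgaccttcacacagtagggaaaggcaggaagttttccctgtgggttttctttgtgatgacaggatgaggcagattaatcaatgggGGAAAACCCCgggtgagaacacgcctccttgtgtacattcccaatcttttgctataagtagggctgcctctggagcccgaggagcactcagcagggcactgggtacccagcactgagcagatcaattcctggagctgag
Ccl7: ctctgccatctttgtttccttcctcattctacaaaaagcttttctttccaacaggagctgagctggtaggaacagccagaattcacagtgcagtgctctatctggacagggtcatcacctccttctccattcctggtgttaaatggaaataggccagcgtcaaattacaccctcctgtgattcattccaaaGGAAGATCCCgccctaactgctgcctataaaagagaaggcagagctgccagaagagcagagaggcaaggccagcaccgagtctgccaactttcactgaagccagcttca

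Interleukins and their receptors were mostly higher in Fb-Epn where they differed, with 18 of 33 on that side, 1 on the other and 14 not past. The count higher in Fb-Epn fell to 14 without Fb-Epn sample 1 or Fb-Par sample 1. It was 15 to 17 without other single samples. *Il1rl1*, the receptor of interleukin 33, was at 2227, 2276 and 2277 TPM against 284, 289 and 297 TPM in Fb-Par and 111, 116 and 113 TPM in skin (2.97 ± 0.025, edgeR adjusted p = 1.33e-17). *Il1rn*, the antagonist of the interleukin 1 receptor, was at 165, 166 and 167 TPM against 10.8, 10.5 and 9.92 TPM (4.00 ± 0.078), and *Il18* differed by 2.84 ± 0.46. *Il34*, a ligand of the macrophage receptor CSF1R, was the 1 gene higher in Fb-Par (4.66, 3.72 and 5.84 TPM against 24.5, 23.2 and 22.8 TPM, -2.30 ± 0.16).

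Genes known to respond to NF-kappaB were not uniform: 13 of 23 were higher in Fb-Epn, 3 in Fb-Par and 7 did not pass. *Nfkbiz*, a nuclear cofactor of NF-kappaB, was at 57.2, 54.9 and 61.8 TPM against 7.79, 9.73 and 7.61 TPM (2.80 ± 0.088), and *Vcam1*, an adhesion molecule for leukocytes, at 7.55, 7.12 and 7.76 TPM against 0.455, 1.105 and 0.44999 TPM (3.50 ± 0.33). *Lcn2*, an iron-sequestering acute phase protein, had 0 TPM in Fb-Par, with a bound of 11.7-fold. *Icam1*, another leukocyte adhesion molecule, was higher in Fb-Par (112, 109 and 114 TPM against 235, 239 and 235 TPM, -1.08 ± 0.041). Of the prostaglandin genes, 8 of 14 higher in Fb-Epn and 3 in Fb-Par. The inducible synthase gene *Ptgs2* (27.9, 29.4 and 30.2 TPM against 5.55, 5.64 and 5.68 TPM, 2.38 ± 0.074) and *Hpgd*, whose enzyme inactivates prostaglandins (23.8, 26.04 and 22.2 TPM against 0.869, 1.01 and 0.239 TPM, 5.07 ± 0.32), were both DE and higher in Fb-Epn, whereas the prostaglandin E synthase *Ptges* was higher in Fb-Par (-0.91 ± 0.12). Without Fb-Epn sample 1 or Fb-Par sample 2 the count of prostaglandin genes higher in Fb-Par fell from 3 to 1, as *Pla2g4a* and *Ptger1* lost their calls (edgeR adjusted p = 0.00163 to 0.018 and 0.000432 to 0.0142).

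Complement genes differed in both directions. Of 21 genes, 12 were higher in Fb-Epn and 4 in Fb-Par. *Cfi*, a protease that degrades C3b, was at least 29.1-fold higher in Fb-Epn, and *C4b* was at 9.92, 9.14 and 10.1 TPM against 2.44, 2.02 and 1.96 TPM (2.19 ± 0.23). *C7*, a component of the membrane attack complex, was at 81.7, 76.8 and 75.4 TPM in Fb-Par, 9.41, 10.6 and 8.99 TPM in Fb-Epn and 0 TPM in skin (-3.00 ± 0.084), and *C6*, its partner, at 13.4, 14.4 and 14.2 TPM against 3.18, 4.05 and 3.41 TPM (-1.97 ± 0.17). Interferon-stimulated genes passed at about the background share, with 8 of 24 higher in Fb-Epn (5 without Fb-Epn sample 1 or Fb-Par sample 1) and 3 in Fb-Par. *Mx1* was at least 10.4-fold higher in Fb-Epn, and *Gbp2* was higher in Fb-Par (-0.81 ± 0.067).

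**Figure D3:**
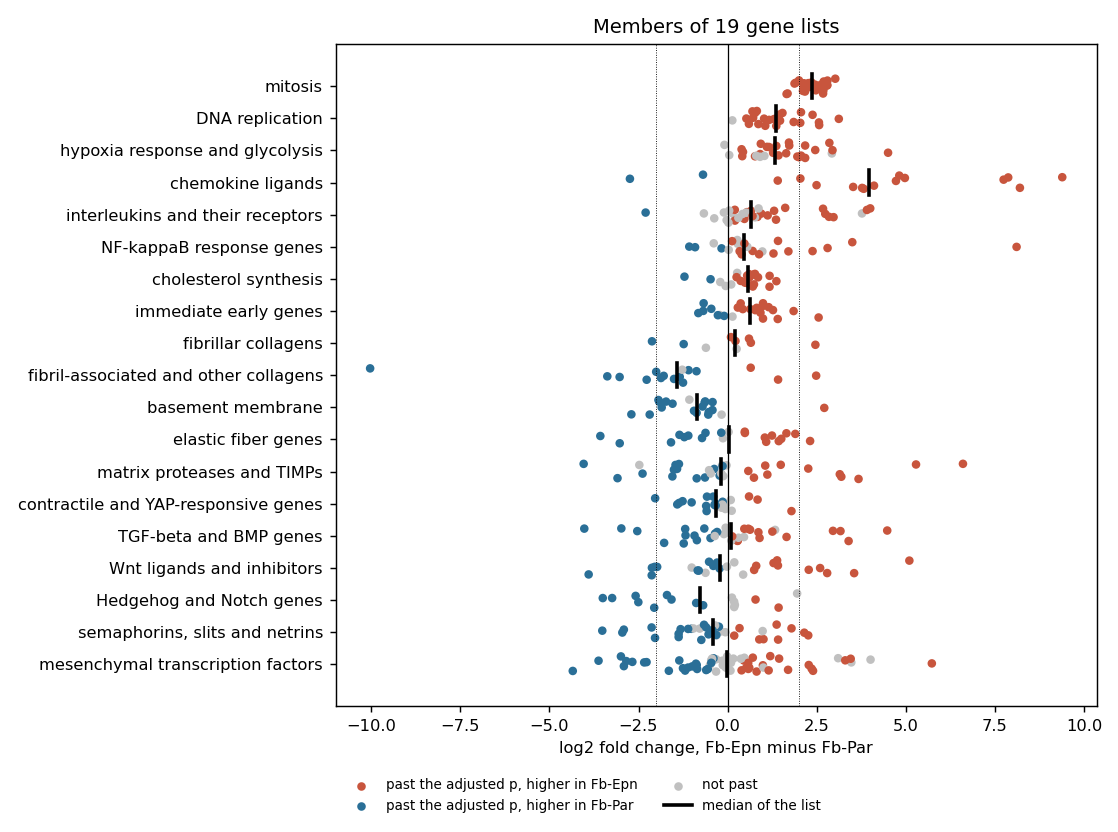
Fitted log2 fold change (Fb-Epn minus Fb-Par) of each tested member of 19 lists, coloured by direction where past the adjusted p, with the median of each list as a black bar; jitter is vertical only. The mitosis, DNA replication and hypoxia lists hold no gene past on the Fb-Par side, whereas basement membrane holds 1 past on the Fb-Epn side.

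The ECM differed by component rather than as a whole. Of 9 fibrillar collagen genes, 5 were higher in Fb-Epn and 2 in Fb-Par, and without Fb-Epn sample 2 or Fb-Par sample 2 the first count was 3. *Col3a1* was at 12914, 13119 and 13039 TPM in Fb-Epn and 8113, 8754 and 8177 TPM in Fb-Par (0.65 ± 0.025), with no overlap. *Col11a1*, a minor fibril chain known from cartilage, was DE in the other direction, at 456, 467 and 471 TPM against 106, 109.8 and 102 TPM (-2.12 ± 0.032), and *Col5a3* followed (-1.23 ± 0.031). Other collagens were mainly higher in Fb-Par, 12 of 16, with a median of -1.42. *Col9a1*, a fibril-associated chain of cartilage, was at 23.3, 25.1 and 25.3 TPM in Fb-Par and 0.0523, 0 and 0 TPM in Fb-Epn, at least 162-fold higher in Fb-Par. *Col8a1*, a short-chain collagen of vessel walls, was at 1640.0, 1709.9 and 1699 TPM against 340.2, 355 and 343 TPM (-2.27 ± 0.028), and *Col15a1*, which sits at the edge of basement membranes, varied from 230 to 403 TPM within Fb-Par and still did not overlap with 36.8, 41.3 and 38.3 TPM in Fb-Epn (-3.03 ± 0.15). *Col14a1* and *Col12a1*, which coat fibrils in dense connective tissue, were higher in Fb-Epn (480.3, 497 and 491 TPM against 87.2, 84.3 and 92.8 TPM, 2.48 ± 0.040, and 1.42 ± 0.050).

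Basement membranes are thin sheets of type 4 collagen, laminin, nidogen and perlecan that surround Schwann cells, perineurial cells and vessels. Of 19 tested genes, 16 were higher in Fb-Par and 1 in Fb-Epn, with a median of -0.87, and the summed TPM was 3728 to 3816 in Fb-Epn, 9340.2 to 9813 in Fb-Par and 3415 to 3607 in Fb-Skn. *Col4a1* was at 754, 757 and 761 TPM in Fb-Epn and 3360.2, 3500.2 and 3560.1 TPM in Fb-Par (-2.19 ± 0.025, edgeR adjusted p = 6.02e-17), and *Col4a2*, its partner chain, at 673, 685 and 656 TPM against 2485, 2538 and 2642 TPM (-1.92 ± 0.027). *Lama5* differed by -1.94 ± 0.11 and *Fras1*, a protein at the epithelial basement membrane, by -2.70 ± 0.23. *Lamb3*, a chain of laminin 332, was the 1 gene higher in Fb-Epn (4.76, 4.51 and 3.803 TPM against 0.793, 0.407 and 0.774 TPM, 2.71 ± 0.22). Pericyte and Schwann cell markers were mostly higher in Fb-Par as well, and the part of such cells was not tested.

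*Col4a1* and *Col4a2* are transcribed away from each other. In RefSeq on GRCr8 their annotated starts lie 77 bases apart, and their windows share 176 bases. The *Col4a1* window (chr16:84885347-84885646, plus strand) is printed with the bases from the *Col4a2* start up to the *Col4a1* start in capitals.
Col4a1: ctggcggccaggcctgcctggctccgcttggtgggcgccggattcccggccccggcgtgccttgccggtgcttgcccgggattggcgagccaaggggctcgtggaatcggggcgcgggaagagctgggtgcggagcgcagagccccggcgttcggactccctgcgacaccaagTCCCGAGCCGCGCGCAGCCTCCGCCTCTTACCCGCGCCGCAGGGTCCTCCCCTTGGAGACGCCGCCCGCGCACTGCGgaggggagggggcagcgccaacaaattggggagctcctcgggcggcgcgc

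Genes known from cartilage and mineralized tissue held the most abundant DE gene of all. *Mgp*, which encodes an inhibitor of calcification, was at 9793, 9324 and 9742 TPM in Fb-Par, 2045, 2061 and 2033 TPM in Fb-Epn and 141, 133 and 144 TPM in skin (-2.22 ± 0.029, edgeR adjusted p = 2.27e-16). Of the 18 genes of the list, 9 were higher in Fb-Par and 5 in Fb-Epn, the latter including *Enpp1*, which makes the calcification inhibitor pyrophosphate (111, 108 and 113 TPM against 22.2, 22.996 and 22.9 TPM, 2.30 ± 0.047), and the bone regulator *Runx2* (1.61 ± 0.10). Tendon genes were split too, 5 of 7 higher in Fb-Epn and 2 in Fb-Par. The tendon regulator *Scx* (36.9, 31.7 and 34.4 TPM against 2.41, 2.603 and 4.42 TPM, 3.45 ± 0.19), its target *Tnmd* (33.9, 34.5 and 35.1 TPM against 1.23, 0.316 and 0.1502 TPM, 5.84 ± 0.44) and the proteoglycan *Fmod* (3.67 ± 0.28) were DE and higher in Fb-Epn, whereas the tendon regulator *Mkx* (-2.99 ± 0.62) and *Thbs4* (150.4, 156 and 155 TPM against 25.5, 28.3 and 26.3 TPM, -2.51 ± 0.070) were DE and higher in Fb-Par.

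Matricellular genes, which modulate cell contact with the matrix, all passed, 7 higher in Fb-Epn and 12 in Fb-Par. *Tnc*, tenascin C, was at 1462, 1491 and 1454 TPM against 256, 254 and 272 TPM (2.51 ± 0.028), and *Spon1*, a secreted protein first known from the floor plate, at 89.4, 92.8 and 88.4 TPM against 3.72, 4.26 and 4.37 TPM (4.47 ± 0.065). On the other side were *Smoc1*, a secreted calcium-binding protein that antagonizes BMP (575, 552 and 578 TPM against 41.3, 42.97 and 43.3 TPM, -3.73 ± 0.069), and *Sparcl1* (46.3, 43.7 and 44.9 TPM against 2.62, 2.77 and 3.09 TPM, -3.98 ± 0.17). Elastic fibre genes were divided in a similar way (10 higher in Fb-Epn, 9 in Fb-Par): *Eln* itself was at 81.9, 85.04 and 85.7 TPM against 27.9, 27.6 and 25.7 TPM (1.65 ± 0.052), while *Efemp1*, which encodes fibulin 3, was at 262, 248 and 265 TPM in Fb-Par against 20.4, 22.98 and 21.3 TPM in Fb-Epn (-3.57 ± 0.059). Of the small leucine-rich proteoglycans, *Dcn* and *Lum* were higher in Fb-Par (-1.20 ± 0.027 and -0.78 ± 0.038), and *Bgn* did not pass (4529, 4447 and 4675 TPM against 4367, 4527 and 4553 TPM, with a 95% interval of the log2 fold change from -0.021 to 0.085). The list had 3 of 10 higher in Fb-Epn and 3 in Fb-Par. The DE call of *Aspn* rested on Fb-Par sample 1 (12.2, 1.53 and 0.941 TPM), without which the edgeR adjusted p was 0.112.

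Matrix-degrading enzymes and their inhibitors differed in both directions. *Mmp12*, macrophage elastase, was at 280.4, 304 and 299 TPM in Fb-Epn and 24.9, 21.9 and 22.8 TPM in Fb-Par (3.67 ± 0.079), *Mmp9*, a gelatinase, at 6.95, 6.77 and 7.997 TPM against 0.811, 0.535 and 1.02 TPM (3.19 ± 0.26), and *Mmp7* was at least 14.8-fold higher in Fb-Epn. *Mmp12*, *Mmp3*, *Mmp10* and *Mmp7* form a run of DE genes on chromosome 8 (rn6, 5606592 to 5901049), but *Mmp3* and *Mmp10* were under 2 TPM and lost their calls when any of several single samples, including Fb-Epn sample 1 and each of 3 Fb-Par samples, was left out (edgeR adjusted p = 0.00179 to 0.0926 and 0.00385 to 0.0228). *Timp3*, an inhibitor of metalloproteinases that binds to the matrix, had the opposite direction at a high level, 557, 534 and 556 TPM in Fb-Par against 32.002, 31.9 and 35.5 TPM in Fb-Epn (-4.04 ± 0.051, edgeR adjusted p = 8.83e-17). The versican-cleaving protease gene *Adamts15* was also higher in Fb-Par (31.6, 33.8 and 31.7 TPM against 3.22, 4.36 and 3.6997 TPM, -3.09 ± 0.093). Over the whole list 11 of 31 were higher in Fb-Epn and 13 in Fb-Par. When single samples were left out, the count higher in Fb-Epn was 8 to 11, with 8 reached without Fb-Par sample 1.

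Plasminogen and coagulation genes had 8 of 14 higher in Fb-Epn and 4 in Fb-Par. *F3*, tissue factor, was at 1852, 1906 and 1969 TPM against 373, 369 and 386 TPM (2.35 ± 0.030), and *Thbd*, the thrombin-binding anticoagulant receptor, at 69.4, 69.8 and 68.6 TPM in Fb-Par against 9.54, 10.2 and 8.68 TPM in Fb-Epn (-2.86 ± 0.070). The 2 plasminogen activators were opposed: *Plau* was higher in Fb-Epn (54.5, 50.5 and 55.4 TPM against 20.7, 17.7 and 17.6 TPM, 1.52 ± 0.091) and *Plat* in Fb-Par (80.2, 83.02 and 102 TPM against 290.5, 283 and 279 TPM, -1.68 ± 0.078). Hyaluronan genes had 7 of 15 higher in Fb-Epn and 3 in Fb-Par. *Cemip*, which is needed to break down hyaluronan, was at 98.9, 98.1 and 91.6 TPM in Fb-Epn and 3.14, 3.14 and 3.36 TPM in Fb-Par (4.91 ± 0.062, edgeR adjusted p = 5.17e-17). Contractile and YAP-responsive genes were higher in Fb-Par in 13 of 22 cases and in Fb-Epn in 3, with a median of -0.34. The pericyte and smooth muscle sum was also higher in Fb-Par, and the part of such cells was not tested. That sum itself includes contractile genes (*Acta2*, *Cnn1* and *Myh11*), so it is not independent of them. The single DE gene of the contractile and YAP-responsive list was *Tpm2*, a tropomyosin of smooth muscle and myofibroblasts (695, 718 and 701 TPM against 2851, 3013 and 2856 TPM, -2.03 ± 0.040). *Myl9*, the myosin light chain, differed by -1.26 ± 0.036.

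**Figure D4:**
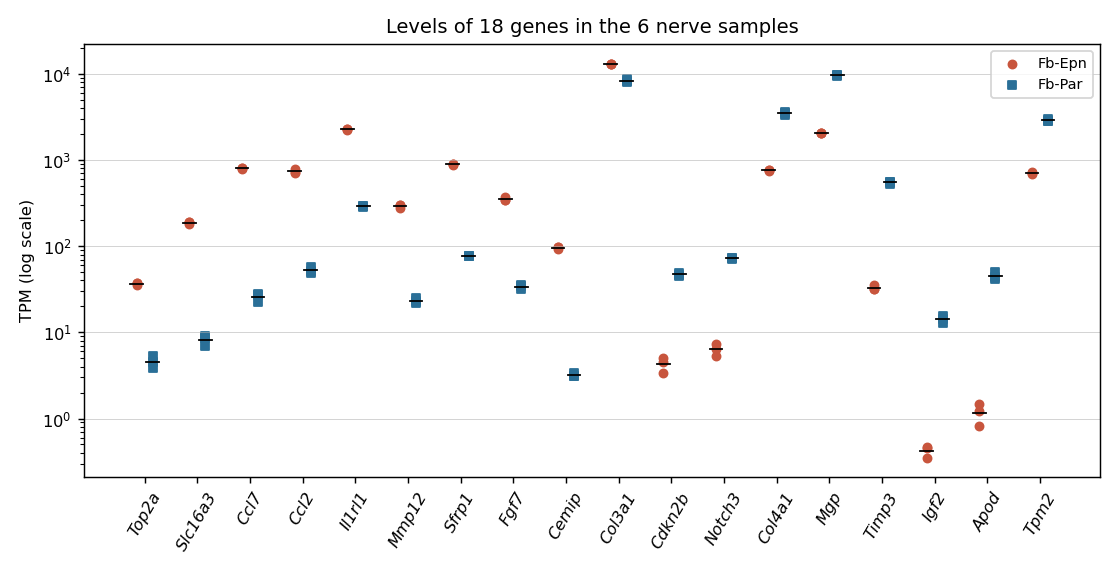
TPM (log scale) of 18 genes in each Fb-Epn and Fb-Par sample, with the mean as a bar. The samples of a type lie close together for each gene. No gene overlaps between the types, but the genes were picked with their differences known, and 57.3% of all tested genes do not overlap. *Col3a1* and *Mgp* are the most abundant.

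Wnt proteins are short-range signals that act through Frizzled receptors. The list had 10 of 27 higher in Fb-Epn and 12 in Fb-Par, with 5 DE on the Fb-Epn side and 4 on the Fb-Par side. All 3 DE members of the secreted frizzled-related family, which bind Wnt proteins, were higher in Fb-Epn: *Sfrp1* at 892, 881 and 903 TPM against 76.5, 76.3 and 77.4 TPM (3.55 ± 0.043, edgeR adjusted p = 1.13e-16), *Sfrp4* at 72.5, 78.05 and 79.1 TPM against 12.1, 11.7 and 9.56 TPM (2.79 ± 0.11) and *Sfrp2* (5.10 ± 0.37). The ligand genes *Wnt2b* (2.60 ± 0.28) and *Wnt11* (2.28 ± 0.15, named after its value was seen) were higher in Fb-Epn, and *Wnt2* (10.98, 9.99 and 7.84 TPM against 0.899, 0.398 and 0.592 TPM, -3.90 ± 0.39) and *Wnt16* (-2.12 ± 0.49) in Fb-Par. The receptor gene *Fzd8* (-2.13 ± 0.32) and *Lef1*, a transcription factor of the pathway (-2.05 ± 0.30), were higher in Fb-Par.

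Bone morphogenetic proteins (BMPs) are held back in the matrix by secreted antagonists. The antagonists *Grem1* (83.1, 84.4 and 81.6 TPM against 8.19, 7.91 and 7.73 TPM, 3.39 ± 0.046) and *Chrdl1* (86.98, 94.6 and 87.8 TPM against 13.2, 11.4 and 10.2 TPM, 2.96 ± 0.085) were DE and higher in Fb-Epn, while the antagonist *Smoc1*, described above, was DE and higher in Fb-Par (-3.73 ± 0.069). The ligands *Bmp2* (12.3, 10.5 and 11.8 TPM in Fb-Par against 0.873, 0.441 and 0.801 TPM in Fb-Epn, -4.02 ± 0.24) and *Bmp4* (26.8, 27.5 and 25.8 TPM against 3.32, 3.43 and 3.28 TPM, -2.98 ± 0.16) were DE and higher in Fb-Par. *Id4*, of a family of BMP target genes, shared their direction (-2.54 ± 0.080), whereas the ligand *Gdf5* was at least 7.29-fold higher in Fb-Epn. *Tgfb2* was at 255, 257 and 251 TPM in Fb-Par against 75.1, 70.02 and 75.4 TPM in Fb-Epn (-1.78 ± 0.039), and *Tgfb1*, named after its value was seen, did not pass (edgeR adjusted p = 0.187). In all, 15 of 37 genes of the list were higher in Fb-Epn and 13 in Fb-Par.

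Notch signalling passes between touching cells, and its DE genes were all higher in Fb-Par. Among 16 Hedgehog and Notch genes, 9 were higher in Fb-Par (5 DE), 2 in Fb-Epn, and the median was -0.78. The receptor gene *Notch3* was at 72.4, 71.7 and 73.3 TPM in Fb-Par, 7.404, 6.36 and 5.27 TPM in Fb-Epn and 1.15, 1.87 and 1.62 TPM in skin (-3.50 ± 0.095, edgeR adjusted p = 3.92e-13), and the ligand gene *Jag1* at 111, 114 and 116 TPM against 18.5, 18.8 and 19.1 TPM (-2.58 ± 0.039). The target genes *Hey2* (5.66, 7.18 and 8.47 TPM against 1.04, 0.593 and 0.589 TPM), *Hey1* (11.1, 11.001 and 6.19 TPM against 2.12, 1.13 and 1.68 TPM) and *Heyl* (-2.06 ± 0.14, named after its value was seen) completed the group. *Notch2* was higher in Fb-Epn (0.78 ± 0.041), as was the Hedgehog effector *Gli3* (1.43 ± 0.11). *Notch3* is also a mural cell marker, and the part of such cells was not tested.

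Growth factors differed gene by gene. The FGF list had 9 of 19 higher in Fb-Epn and 5 in Fb-Par. Without Fb-Par sample 1 or any single Fb-Epn sample, its count higher in Fb-Epn was 7. The VEGF, angiopoietin and PDGF list had 7 of 21 higher in Fb-Epn and 5 in Fb-Par (3 in Fb-Par without Fb-Par sample 1). *Fgf7*, keratinocyte growth factor, was at 347, 373 and 340.5 TPM in Fb-Epn and 34.5, 31.6 and 34.98 TPM in Fb-Par (3.40 ± 0.075), *Fgf18* and *Fgf10* were higher in Fb-Epn (1.88 ± 0.25 and 1.54 ± 0.094), and the receptor gene *Fgfr2* was higher in Fb-Par (-1.70 ± 0.081). *Vegfd*, which acts on lymphatic vessels, was at 387, 376 and 377 TPM against 19.6, 18.1 and 19.8 TPM (4.32 ± 0.044, edgeR adjusted p = 2.88e-17), and *Angpt4*, a ligand of the TIE2 receptor, at 51.7, 47.1 and 49.3 TPM against 1.88, 1.99 and 0.775 TPM (4.99 ± 0.22). Every measured gene of the insulin-like growth factor list passed, 6 higher in Fb-Epn and 7 in Fb-Par. The ligands *Igf2* (12.8, 15.5 and 14.3 TPM in Fb-Par against 0.353, 0.468 and 0.454 TPM in Fb-Epn, -5.03 ± 0.23) and *Igf1* (-1.08 ± 0.057) were higher in Fb-Par, as were the binding protein genes *Igfbp5* (-1.47 ± 0.038) and *Igfbp7* (-1.34 ± 0.033). *Igfbp3* (436, 426 and 435 TPM against 87.8, 84.1 and 83.5 TPM, 2.35 ± 0.033) and *Stc2*, which restrains a protease of binding proteins (115, 115 and 121 TPM against 7.03, 7.58 and 7.98 TPM, 3.96 ± 0.079), were higher in Fb-Epn. The EGF list had 3 of 8 higher in Fb-Epn and 2 in Fb-Par. *Ereg*, a ligand of the EGF receptor, had 0 TPM in Fb-Par, with a bound of 9.49-fold.

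Ligands known to act on neurons and Schwann cells were also divided, 4 of 13 higher in Fb-Epn and 3 in Fb-Par. The count higher in Fb-Par was 2 when single samples other than Fb-Par sample 3 were left out. *Cdnf* lost its call in those cases (edgeR adjusted p = 0.00236 to 0.0411 over all single samples). *Artn*, a ligand of the GFRA3 and RET receptors on sensory neurons, was at 13.01, 15.9 and 15.4 TPM in Fb-Epn and 0.685, 1.43 and 0.903 TPM in Fb-Par (3.88 ± 0.35). *Nrg1*, the ligand of ErbB receptors on Schwann cells, was at 13.7, 15.1 and 15.2 TPM against 2.65, 2.27 and 2.31 TPM (2.61 ± 0.10), and *Lif* at 68.7, 69.01 and 65.2 TPM against 27.9, 25.9 and 28.98 TPM (1.30 ± 0.068). *Bdnf* was higher in Fb-Par (5.86, 5.98 and 5.84 TPM against 0.886, 0.581 and 0.714 TPM, -3.01 ± 0.15) and measured 14.3, 13.3 and 14.9 TPM in skin, and *Mdk* was higher in Fb-Par (-0.68 ± 0.087). Of 22 tested genes from the soluble factors the study discussed, 10 were higher in Fb-Epn and 5 in Fb-Par.

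**Figure D5:**
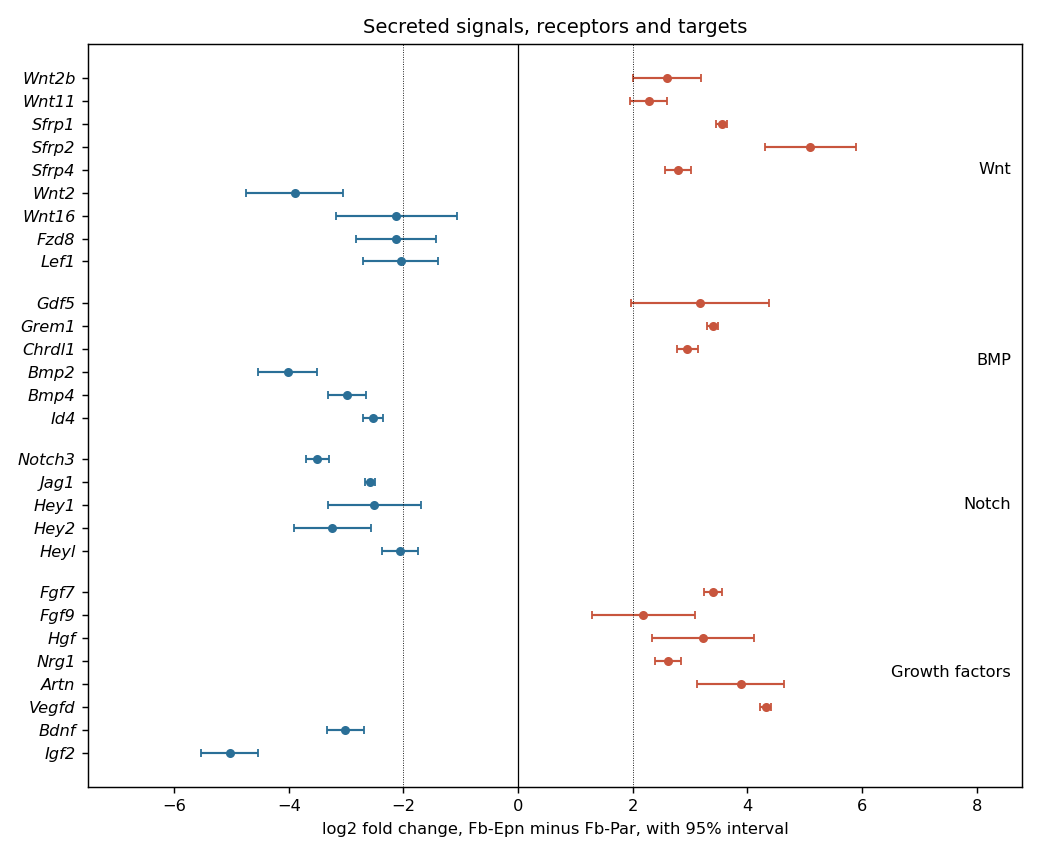
Log2 fold change (Fb-Epn minus Fb-Par) with its 95% interval for DE genes of the Wnt, BMP and Notch pathways and for growth factors; dotted lines mark 2 and -2. The *Sfrp* genes and *Grem1* lie on the Fb-Epn side, and the 5 Notch genes and *Bmp2* and *Bmp4* on the Fb-Par side; the point of *Gdf5* is a fitted value and no bound.

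Guidance cues steer growing axons and migrating cells. Of 35 semaphorin, slit and netrin genes with their receptors, 18 were higher in Fb-Par (5 DE) and 9 in Fb-Epn (2 DE). *Ntn4*, a netrin found in basement membranes, was at 309, 303 and 294 TPM in Fb-Par against 25.3, 28.5 and 24.5 TPM in Fb-Epn (-3.52 ± 0.059, edgeR adjusted p = 1.67e-15), and the secreted glycoprotein gene *Reln* at 11.5, 11.4 and 10.1 TPM against 1.54, 1.38 and 1.29 TPM, with 0 TPM in skin (-2.95 ± 0.11). The netrin receptor gene *Unc5b* was higher in Fb-Epn (96.3, 91.4 and 90.3 TPM against 18.02, 20.005 and 20.4 TPM, 2.26 ± 0.050). Neural adhesion molecules were split, 6 of 18 higher in Fb-Epn and 8 in Fb-Par: *Ncam1* (303, 294 and 303 TPM against 48.3, 48.05 and 48.2 TPM, 2.65 ± 0.038) and *Alcam* (2.89 ± 0.059) were higher in Fb-Epn, and *Lsamp* (14.6, 18.3 and 17.03 TPM against 1.38, 1.99 and 1.19 TPM, -3.41 ± 0.28) and *Cntn2* (-2.34 ± 0.12) in Fb-Par. Cadherins had 5 of 18 higher in Fb-Epn and 9 in Fb-Par. *Cdh13*, which is anchored by lipid and lacks a cytoplasmic tail, was at 368, 363 and 363 TPM in Fb-Par against 41.5, 41.3 and 40.4 TPM in Fb-Epn (-3.14 ± 0.033), *Cdh20* was at least 21.1-fold higher in Fb-Par, and *Cdh3* was higher in Fb-Epn (3.37 ± 0.14). Integrins had 8 of 19 higher in Fb-Epn and 9 in Fb-Par. *Itga10*, a collagen receptor subunit, was higher in Fb-Par (-2.56 ± 0.18) and *Itgb2*, a leukocyte subunit, in Fb-Epn (2.88 ± 0.099). Ephrins and Eph receptors had 5 of 15 higher in Fb-Epn and 3 in Fb-Par, none of them DE.

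Transcription factors of mesenchymal cells gave DE genes on both sides, 6 higher in Fb-Epn and 8 in Fb-Par out of 59 tested. The list as a whole had 19 genes higher in Fb-Epn and 21 in Fb-Par. *Wt1*, a regulator of mesothelial and kidney lineages, was at 9.72, 10.4 and 9.01 TPM in Fb-Epn and 0.278, 0.0804 and 0.153 TPM in Fb-Par (5.73 ± 0.51). *Six2*, a homeobox gene, was at 5.701, 5.84 and 5.78 TPM against 1.099, 1.11 and 1.06 TPM (2.40 ± 0.37), and *Zfhx4* differed by 3.30 ± 0.15. In Fb-Par the forkhead gene *Foxl1* was at least 5.37-fold higher and *Tfap2a*, a gene of neural crest cells, was at 3.201, 2.55 and 1.64 TPM against 0.422, 0.1599 and 0 TPM (-3.62 ± 0.64). *Hox* genes, which record position along the body axis, passed in 6 of 18 tested cases, near the background share, and none was DE. Of these, 5 were higher in Fb-Par (such as *Hoxd9*, -1.64 ± 0.21) and 1, *Hoxc8*, in Fb-Epn (0.90 ± 0.13), but without Fb-Epn sample 1 the count higher in Fb-Par fell to 2, and without Fb-Epn sample 2 to 3. *Hoxc5* and *Hoxd8* were among the calls lost (edgeR adjusted p = 0.00155 to 0.0173 and 0.00382 to 0.018). Retinoid genes had 6 of 15 higher in Fb-Epn and 5 in Fb-Par. *Cyp26b1*, whose enzyme degrades retinoic acid (19.8, 19.1 and 19.99 TPM against 4.29, 4.14 and 3.89 TPM, -2.24 ± 0.091), and the synthesis gene *Aldh1a3* (-1.28 ± 0.17) were higher in Fb-Par.

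Of the 860 DE genes, 176 (20.5%) lay next to a tested gene that was DE in the same direction, and 12 runs of at least 3 held 44 genes. The share that would arise with genes in random order was not computed, so the 20.5% is a description and no measure of clustering. Besides the chemokine and *Mmp* runs, 2 runs on chromosome 10 held genes of the *Cd300* family of leukocyte receptors, and the bradykinin receptor genes *Bdkrb2* (2.76 ± 0.19) and *Bdkrb1* (4.15 ± 0.33) lay together on chromosome 6 between 129320389 and 129443023, all higher in Fb-Epn. On the Fb-Par side, the aldehyde oxidase genes *Aox1*, *Aox3* and *Aox2* lay on chromosome 9 between 64929721 and 65265149. *Aox1* was at 17.7, 18.6 and 19.4 TPM in Fb-Par against 2.01, 1.64 and 1.83 TPM in Fb-Epn (-3.34 ± 0.15), *Aox3* was at least 10.1-fold higher in Fb-Par and *Aox2* at least 6.63-fold. Paralogues in such runs can share reads, which makes the values of single members less certain.

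Among the 10 genes past the adjusted p with the largest difference in mean TPM towards Fb-Epn were *Thbs1*, *Col3a1*, *Vim*, *Col1a1*, *Il1rl1*, *F3*, *Gapdh*, *Fn1* and NEWGENE_621351. *Thbs1*, thrombospondin 1, was at 12622, 12398 and 12548 TPM against 6415, 6527 and 6864 TPM (0.93 ± 0.033), and *Fn1*, fibronectin, at 5253, 5269 and 4998 TPM against 3796, 3732 and 3894 TPM (0.45 ± 0.026). The 10 towards Fb-Par were *Mgp*, *Sparc*, *Col4a1*, *Tagln*, *Tpm2*, *Col4a2*, *Spp1*, *S100a6*, LOC100360087 and AC128792.2. *Sparc*, a collagen-binding glycoprotein, was at 17102, 16722 and 17291 TPM in Fb-Par against 13096, 13196 and 13111 TPM in Fb-Epn (-0.37 ± 0.017), and *Tagln*, transgelin, at 7630.0, 7803 and 8078 TPM against 5082, 5257 and 5172 TPM (-0.59 ± 0.029). NEWGENE_621351, LOC100360087 and AC128792.2 carry provisional names, and whether they share reads with copies elsewhere was not tested. NEWGENE_621351, a symbol that the count table lists at 2 loci, lost its call at the locus named here without Fb-Epn sample 1 or 2 or Fb-Par sample 1 or 2 (edgeR adjusted p = 0.00222 to 0.0302).

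Some abundant genes were close between the types. *Tmsb4x*, an actin-binding peptide (6002, 6139 and 6006 TPM against 6044, 5515 and 6094 TPM), *S100a11* (3472, 3405 and 3679.5 TPM against 3455, 3502 and 3559.7 TPM) and *Tmsb10* had 95% intervals of the log2 fold change within 0.25 of 0 and did not pass. *Ccn2*, a matricellular YAP target, passed with a small difference (5497, 5425 and 5553 TPM against 6111, 6034 and 6145 TPM, -0.14 ± 0.017), as did *Serpinh1*, the collagen chaperone (0.12 ± 0.028), whose call was lost without Fb-Epn sample 1 or 2 or Fb-Par sample 2 or 3 (edgeR adjusted p = 0.00134 to 0.0172). *Rpl23a* and *Rplp1*, which encode ribosomal proteins, differed by 0.15 ± 0.033 and 0.15 ± 0.045, and *Rplp1* did not pass. The call of *Rpl23a* was lost without Fb-Par sample 1 (edgeR adjusted p = 0.00135 to 0.0106).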

How the data were processed

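RNA of the nerve samples (3 Fb-Epn, 3 Fb-Par) and of 3 Fb-Skn samples was sequenced as directional poly(A) libraries with paired reads of 150 bases. Per the labels, the authors used FastQC 0.11.7, Trimmomatic 0.38, HISAT2 2.1.0 and featureCounts 1.6.3 with the build rn6; the annotation release and the strand setting of the counting are not given in the sources used here. Without the latter, reads of overlapping antisense genes cannot be told apart. The authors deposited raw counts per gene, used for all tests, and TPM, used for levels; a deposited table of FPKM was not used.

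Counts were analysed in R 4.3.3 with edgeR 4.0.16 (filterByExpr, TMM scaling, glmQLFit and glmQLFTest, Benjamini-Hochberg adjustment over 13273 of 32883 genes). All 9 samples entered the fit and shared 1 estimate of the spread, and the contrast was Fb-Epn minus Fb-Par. The code of the fit was run on simulated counts with 1 spread for all genes and 200 changed genes. That setting is simpler than these data, so the run is no check of the p-values here. Groups came from the tissue labels. Total counts of the 6 nerve samples ran from 10287389 to 12310506, so genes with few counts had wide errors. Where no sample of a type exceeded 3 counts, the fold over it is a lower bound against 3 counts per sample, which covers counting error only.

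Members and gene lists were chosen with earlier results of these data known. Named genes were the 10 with the largest log2 fold change in each direction at a mean of at least 10 TPM, the 10 with the largest difference in TPM in each direction, up to 4 past the adjusted p per list and direction, cell type markers, the 10 most abundant with a 95% interval within 0.25 of 0, and members of runs of at least 3 neighbouring DE genes. Others are marked in the text, and some named genes are not reported here. Promoter windows were taken from RefSeq on GRCr8 and matched by symbol (21 of 24 mitosis, 20 of 25 DNA replication, 27 of 30 hypoxia and 12 of 16 chemokine genes). Same-numbered samples of the types did not deviate together (correlations of -0.026, -0.012 and -0.080), so they were not paired. Alternatives were other scalings and filters, DESeq2 1.42.0, limma 3.58.1 on log2(TPM + 1) or log2(TPM + 0.1), the nerve samples alone, a replicate block, other thresholds and leaving out each sample.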

Additional observations from a re-analysis of the deposited data

How the results depend on the processing

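The number of genes past the adjusted p stayed between 4449 and 5616 under every alternative but the stricter or looser tests: 342 genes passed a test against a log2 fold change of 2, and 6571 passed at an adjusted p under 0.05. DE genes numbered 854 to 872 when single samples were left out (529 to 547 higher in Fb-Epn, 316 to 336 in Fb-Par), and 854 with DESeq2. They fell to 429 (266 and 163) with at least 10 counts required in each nerve sample, which removes genes absent from 1 type. Limma on log2(TPM + 1), a scale on which low genes have smaller folds, gave 421 (265 and 156), and the test against a log2 fold change of 2 gave 342 (217 and 125). Genes present in Fb-Epn numbered 10 with at least 50 counts required and 5 with 0 counts allowed in Fb-Par, and those present in Fb-Par 4 and 1. Without single samples the counts were 35 to 44 and 14 to 20, with 20 reached without Fb-Epn sample 2. Leaving out a sample removes a condition of the rule, so these counts could not fall and are no check of the sets. With the replicate block, 4859 genes passed and 842 were DE (536 and 306). The pairing was not used, since same-numbered samples correlated at -0.026, -0.012 and -0.080. Of 382 named genes past the adjusted p, 38 lost it under at least 1 alternative, 35 of them when a sample was left out and 10 under the block; none of the 400 tested changed direction past the threshold. Another scaling moved the median of all genes by at most 0.0212. Genes under 1 TPM rest on few counts.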
